A study of Rattus norvegicus with 4 samples.

Results

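The genes described here are 9 genes listed for the meninges, the membranes that wrap the brain. They are Ptgds, Aldh1a1, Aldh1a2, Crabp1, Crabp2, Rbp4, Slc6a13, Slc22a8 and Foxc1. Crabp1 and Rbp4 are in the list as retinoid genes and are not among the meningeal or arachnoid barrier markers used further on. The 9 genes were taken by gene symbol from the 17445 rows listed in the 4 expression files together. Each has exactly 1 row with a gene ID in all 4 files. The list was drawn up because Ptgds was far higher in the female control library than elsewhere, so the members were chosen by the Ptgds value of that library, and all values that involve it are given as a description. RNA-seq was performed on the hippocampus of Wistar rat pups at postnatal day 1, with 1 library for each of 4 groups: control and BPA males, and control and BPA females. Dams aged 10 weeks received bisphenol A (BPA), a plasticizer with estrogen-like activity, at 5000 µg/kg body weight daily, or vehicle alone (corn oil with ethanol, by the study's methods), into the stomach from gestation day 1 until birth. All groups shared strain, age and tissue. Each library is a pool of 3 hippocampi and each group has a single library, so any p-value measures only the spread between these libraries.

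The meninges make retinoic acid and prostaglandin D2 for the brain beneath them. In the first pathway, retinol travels in blood bound to the carrier Rbp4, is oxidized to retinaldehyde, and is turned into retinoic acid by Aldh1a enzymes, and Crabp proteins then hold retinoic acid inside the cell. In the second, cyclooxygenases convert arachidonic acid to prostaglandin H2, which Ptgds turns into prostaglandin D2. The transporters Slc6a13 and Slc22a8 are used in barrier cells to move GABA, taurine and organic anions, and the forkhead factor Foxc1 is required for the meninges to form. None of these roles is private to the meninges: Ptgds is also made by choroid plexus and oligodendrocytes, Rbp4 mostly by the liver, and Crabp1 by several kinds of developing neuron.

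Values are in FPKM as the authors deposited them, that is, fragments scaled to gene length and to the library's total. Runs of 4 values are ordered as control then BPA for males, followed by control then BPA for females. Because low FPKM values are spaced by whole fragments, depth could be estimated, at 8652000 to 8908000 fragments per library. From this depth each FPKM value was given an exact Poisson 95% interval. These intervals cover counting error only, neither variation between pups nor dissection. Hippocampal excitatory neuron markers, among them Slc17a7, Neurod6 and Lhx2, were at 560 to 619 FPKM in sum in the 4 libraries, and all 13 were listed in every library. The libraries stood apart for 2 tissues that border the hippocampus, since female control had the highest sum for meningeal markers and, through Ttr alone, the lowest for choroid plexus markers, as described further on.

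The start sites of Ptgds and Aldh1a2 are shown because these genes had the largest difference between female control and the highest of the other libraries among the members, and because their sequences are unlike in composition. Each window runs from 250 bases before to 50 bases after the gene's start, 5′ to 3′ on the gene's strand, in RefSeq's GRCr8 table, and capitals mark CpG dinucleotides. The Ptgds window lies at chr3:28682929-28683228 on the minus strand and the Aldh1a2 window at chr8:80758391-80758690 on the plus strand.
Ptgds: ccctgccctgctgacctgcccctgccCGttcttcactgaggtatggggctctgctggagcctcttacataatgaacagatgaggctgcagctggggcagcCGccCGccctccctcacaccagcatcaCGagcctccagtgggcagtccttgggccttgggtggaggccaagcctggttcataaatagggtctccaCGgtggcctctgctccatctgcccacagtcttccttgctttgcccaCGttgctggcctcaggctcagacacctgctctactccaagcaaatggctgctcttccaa
Aldh1a2: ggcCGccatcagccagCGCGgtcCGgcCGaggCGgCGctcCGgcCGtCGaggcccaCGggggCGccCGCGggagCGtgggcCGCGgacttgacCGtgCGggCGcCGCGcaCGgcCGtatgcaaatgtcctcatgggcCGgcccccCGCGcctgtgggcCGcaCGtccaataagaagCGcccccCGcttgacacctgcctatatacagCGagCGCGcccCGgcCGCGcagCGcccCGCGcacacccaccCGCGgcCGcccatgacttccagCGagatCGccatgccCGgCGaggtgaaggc
The Ptgds window held 6 CpGs at 60.7% GC and the Aldh1a2 window held 47 at 76% GC, against a median of 7 CpGs and 51.7% GC over 33469 promoter windows. Of the 8 members with an entry (Slc6a13 has none), Rbp4 (40 CpGs), Foxc1 (32) and Crabp1 (26) were above the upper quartile of 19, as was Aldh1a2. Crabp2 (14), Ptgds and Slc22a8 (5) lay between the quartiles, and Aldh1a1 (1) was below the lower quartile of 3. Among these 8, the receptor half-site AGGTCA (on either strand) was found only in the Ptgds window, at position -239 on the strand opposite the gene's. This half-site was in 16.2% of all windows. Its direct repeats with spacers of 5 or 2 bases, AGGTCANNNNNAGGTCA and AGGTCANNAGGTCA, each of which contains the half-site, were in none of the 8 and in 0.00896% and 0.012% of all windows. The forkhead core GTAAACA was in none of the 8 and in 3.78% of all windows.

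Ptgds, which encodes lipocalin-type prostaglandin D synthase, was the most abundant of the 9 genes. Male control had 28.9 FPKM of Ptgds (Poisson 95% interval 24.9 to 33.6) and male BPA 40.2 (35.3 to 45.6), while female control had 209 (198 to 221) and female BPA 18.1 (14.9 to 21.8). The female control value rests on about 1268 fragments and the female BPA value on about 110. Female control was thus 5.20 times male BPA, the next library in order (counting interval 4.54 to 5.99), and no pair of the 4 intervals overlapped. Of the 10857 rows with a gene ID and a mean of at least 1 FPKM, Ptgds had the largest excess of female control over the highest other library, 2.35 on the log2(FPKM + 1) scale. Ptgds made up 80.3% of the summed FPKM of the 9 genes in female control and 39.0% to 58.1% in the other libraries.

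**Figure D1:**
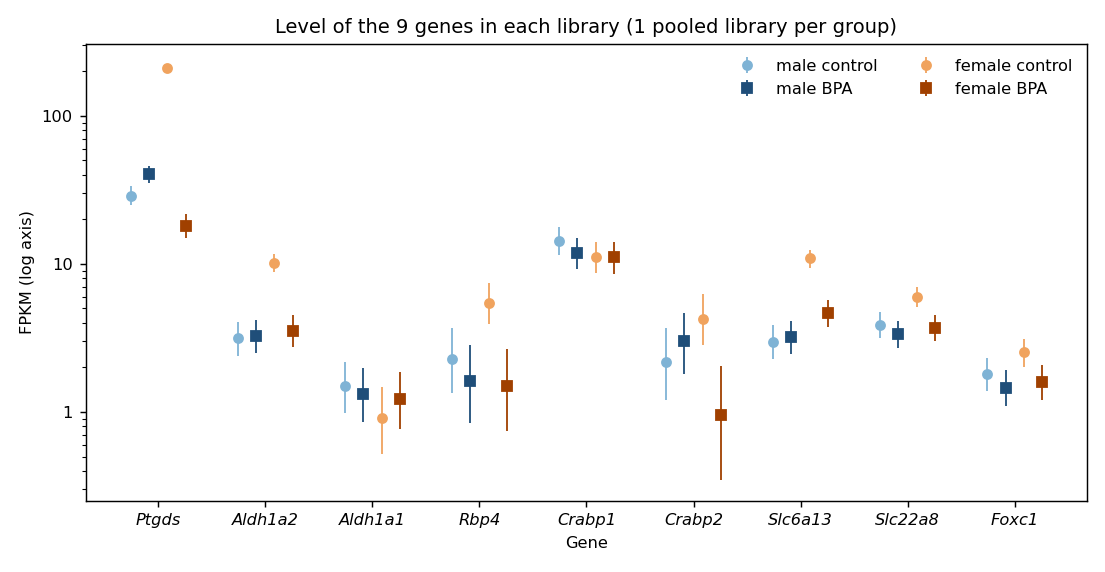
FPKM (log axis) of each of the 9 genes in the 4 libraries; points are the single pooled library of each group and bars are exact Poisson 95% intervals from estimated fragments. Female control is the highest point for 7 genes, while Aldh1a1 and Crabp1 stay within 0.91 to 1.5 and 11.1 to 14.3 FPKM.

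The retinaldehyde dehydrogenases differed from each other. Aldh1a2, the main retinoic acid synthase of the meninges, was at 3.14, 3.25, 10.2 and 3.54 FPKM. The 3 libraries other than female control lay within a factor of 1.13, and female control was 2.87 times the highest of them (counting interval 2.17 to 3.85). Aldh1a1, a related enzyme that in brain is best known from dopamine neurons, was at 1.5, 1.33, 0.91 and 1.23 FPKM, on only 16 to 27 fragments per library. Aldh1a1 was lowest in female control, but its intervals overlapped in all 4 libraries (0.52 to 1.48 FPKM in female control, 0.99 to 2.18 in male control).

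Carriers and binding proteins of the pathway were also split. Rbp4, the plasma carrier of retinol, was at 2.29, 1.63, 5.47 and 1.5 FPKM. Female control was 2.39 times male control for Rbp4 (counting interval 1.32 to 4.48, from 40 and 17 fragments), and the other 3 libraries overlapped. Crabp2, which delivers retinoic acid to its nuclear receptor, was at 2.19, 3.00, 4.27 and 0.95 FPKM. Female control was highest for Crabp2 and 1.42 times male BPA, with an interval of 0.76 to 2.71 that includes 1, whereas female BPA rests on about 6 fragments (0.35 to 2.06 FPKM). Crabp1, which binds retinoic acid in the cytoplasm, was at 14.3, 11.8, 11.1 and 11.1 FPKM. All 4 intervals of Crabp1 overlapped, so no order of the libraries can be read from this gene.

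Both barrier transporters were highest in female control. Slc6a13, the GABA and taurine transporter GAT2 of meninges and vessels, was at 2.99, 3.22, 10.9 and 4.67 FPKM. Female control was 2.33 times female BPA for Slc6a13 (counting interval 1.81 to 3.02), and the 2 male libraries were close to each other. Slc22a8, the organic anion transporter OAT3, was at 3.87, 3.36, 6.01 and 3.70 FPKM. Female control was 1.55 times male control for Slc22a8 (1.20 to 1.99), with the other 3 libraries within a factor of 1.15. Foxc1, the transcription factor, was at 1.81, 1.46, 2.53 and 1.60 FPKM. The ratio of female control to male control for Foxc1, 1.40, has an interval of 0.999 to 1.97 and cannot be set apart from 1 by counting alone.

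Female control was therefore the highest library for 7 of the 9 genes and the lowest for 1, and among rows with a gene ID it was the highest for 29.4% (29.6% of all rows tested) and the lowest for 22.1%. The 3 genes Ptgds, Aldh1a2 and Slc6a13 exceeded every other library by at least 1 on the log2(FPKM + 1) scale, as did 0.184% of rows with a gene ID, or 20 rows, and 0.229% of all rows. Rbp4, at 0.98, was just under that limit and Slc6a13, at 1.07, just over it. With quantile normalization Slc6a13 was at 0.99, under it, and with a pseudocount of 0.1 Rbp4 was at 1.22, over it. The ratios to the highest other library were unequal. That of Ptgds (4.54 to 5.99) did not overlap that of any other member, the nearest bound being that of Rbp4 (1.32 to 4.48), and for 5 of the 7 genes the interval lay above 1. As the list was formed around this pattern, these counts describe it and carry no test.

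In males, BPA and control were close. Their Ptgds values served as part of the comparison that led to the list, but the difference between them did not. Of the 9 genes, 4 were higher and 5 lower in male BPA, where 51% of rows with a gene ID and 50.4% of all rows were lower. None of the 9 passed a log2 fold change of 1 in either direction, against 0.12% of rows with a gene ID at 1 or more and 0.147% at -1 or less (0.834% and 0.864% of all rows). Ptgds was at 40.2 against 28.9 FPKM in males, a ratio of 1.39 (counting interval 1.14 to 1.70). Its log2(FPKM + 1) difference, 0.46, was the largest of the 9 in absolute size on that scale. A difference of at least that size was seen in 4.34% of rows with a gene ID, and for the other 8 genes the counting interval of the male ratio included 1. The lowest ratio was that of Rbp4 (0.71, interval 0.31 to 1.58) and the next highest after Ptgds that of Crabp2 (1.37, interval 0.65 to 2.95). With 1 library on each side, no test was possible within males.

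In females, BPA was set against the library on which the genes were chosen. The differences of log2(FPKM + 1) were -3.46 for Ptgds, -1.43 for Crabp2, -1.37 for Rbp4, -1.30 for Aldh1a2 and -1.07 for Slc6a13, all past -1. They were -0.58 for Slc22a8 and -0.44 for Foxc1, while Aldh1a1 was at 0.22 and Crabp1 at -0.004, whose sign turned with quantile normalization (0.05) and median-ratio scaling (0.04). On the FPKM scale female BPA was at 0.086 of female control for Ptgds (counting interval 0.070 to 0.105) and at 0.22 for Crabp2 (0.075 to 0.55). So 5 of 9 genes were past -1 in females (4 with quantile normalization, which put Slc6a13 at -0.99), as were 0.497% of rows with a gene ID and 1.23% of all rows. Female BPA was the lower library for 8 of 9 genes, and for 57.1% of rows with a gene ID and 56.5% of all rows. No other row with a gene ID had a female difference as large in absolute size as that of Ptgds. BPA was lower in both sexes for 4 of the 9 genes (Rbp4, Crabp1, Slc22a8 and Foxc1) and for 32.6% of rows with a gene ID (31.6% of all rows). For the other 5 genes BPA lay on opposite sides of control in the sexes, as for 42.5% of rows with a gene ID and 43.2% of all rows.

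**Figure D2:**
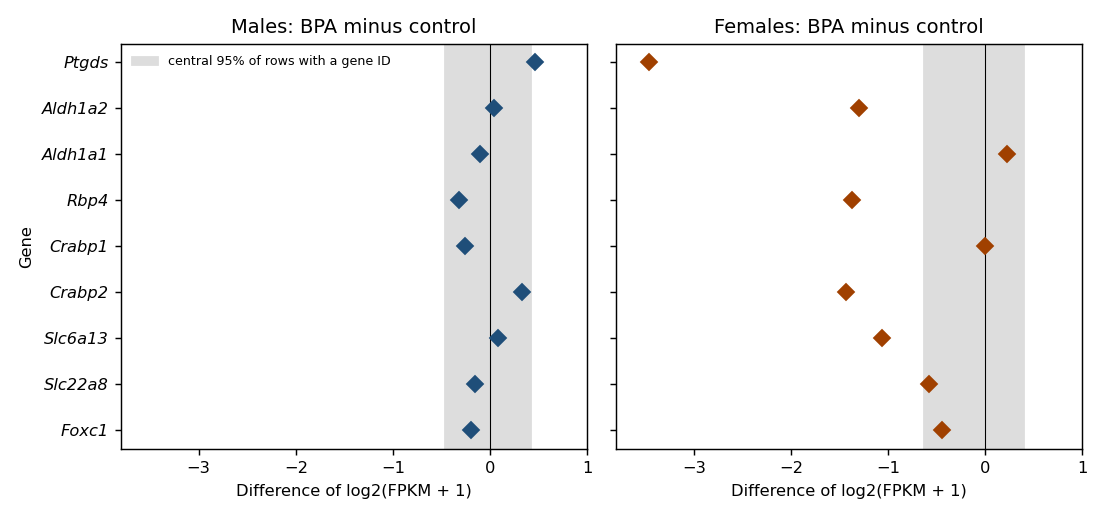
Difference of log2(FPKM + 1) between BPA and control for each gene, males left and females right; diamonds are 1 library against 1 and the grey band holds the central 95% of rows with a gene ID. In males 8 of the 9 diamonds lie inside the band (-0.47 to 0.42), and in females 5 lie left of -1.

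The sexes can also be set side by side within a treatment, again with 1 library each. On the log2(FPKM + 1) scale female control exceeded male control by 2.81 for Ptgds, 1.57 for Slc6a13, 1.43 for Aldh1a2 and 0.98 for Rbp4, so that 3 of 9 genes were past 1, against 0.396% of rows with a gene ID and 1.19% of all rows. Female BPA and male BPA, whose Ptgds values were part of the comparison that led to the list, differed by 0.43 or less in absolute value for 7 of the 9 genes, and the interval of their ratio included 1 for 6. Past -1 were 2 of the 9 genes, against 0.313% of rows with a gene ID and 1.06% of all rows. They were Ptgds, at 18.1 FPKM in female BPA against 40.2 in male BPA (ratio 0.45, counting interval 0.36 to 0.57), and Crabp2, at 0.95 against 3.00 (0.32, interval 0.10 to 0.82). Slc6a13 was instead higher in female BPA, 4.67 against 3.22 FPKM (ratio 1.45, interval 1.03 to 2.04), just outside the central 95% of rows with a gene ID (-0.55 to 0.41 on the log2 scale). Ptgds, Crabp2 and Rbp4 therefore had their lowest value of the 4 libraries in female BPA and their highest in female control.

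To ask whether BPA changed these genes when both sexes were combined, as the study combined them, 2 BPA libraries were compared with 2 control libraries by limma on log2(FPKM + 1) over 13542 rows. None of the 9 genes passed a Benjamini-Hochberg adjusted p under 0.05 in limma, nor did any other row (0% called). By limma's p without adjustment 637 rows were under 0.05, 3.11% of rows being lower in BPA, and 1 of the 9 genes, Rbp4, was among these. The fitted log2 differences were -1.499 for Ptgds (standard error 0.83, limma adjusted p = 0.973), -0.85 for Rbp4 (standard error 0.33) and -0.63 for Aldh1a2 (standard error 0.42), and the smallest adjusted p of the 9 in limma was 0.973. Female control is in this contrast too. Without it the difference of Ptgds was -0.09, those of Aldh1a2 and Slc6a13 turned to 0.085 and 0.29 and that of Aldh1a1 to -0.13, and the 9 lay between -0.36 and 0.29, with a smallest limma adjusted p of 0.978. With 2 libraries a side, the smallest two-sided p of an exact permutation test is 0.333.

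Other genes of the prostaglandin pathway with a mean of at least 1 FPKM had smaller differences than Ptgds. Of 28 genes in this list 12 had a mean of at least 1 FPKM, and apart from Ptgds none of the other 11 passed an absolute log2 difference of 1 in either sex. The hematopoietic type of prostaglandin D synthase, Hpgds, was at 0.90, 0.70, 1.22 and 1.11 FPKM, so Ptgds was the more abundant of the enzymes that make prostaglandin D2 in each library. Ptges3, a cytosolic prostaglandin E synthase and co-chaperone, was at 110, 110, 109 and 122 FPKM. The carbonyl reductase Cbr1, which acts on prostaglandin E2 among many substrates, was at 36.5, 35.7, 32.5 and 30.0 FPKM, Prxl2b (listed as Fam213b) at 19.3, 16.9, 12.1 and 15.5, and Ptges2 at 15.4, 15.5, 12.3 and 12.9. For these 4 enzymes female control was below both male libraries, unlike for Ptgds. The cyclooxygenases that supply them were scarce, with Ptgs1 at 0.33, 0.70, 0.84 and 0.21 FPKM and Ptgs2 at 0.45, 0.58, 0.53 and 0.72 FPKM. Ptgs1 thus had the libraries in the same order as Ptgds, at values under 1 FPKM. Upstream, the phospholipase Pla2g6 was at 9.72, 7.88, 8.04 and 7.81 FPKM and Pla2g4a at 0.32 to 0.53 FPKM.

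On the receiving side, the prostaglandin E receptors Ptger1 and Ptger3 were the most abundant receptors. Ptger1 was at 9.28, 10.2, 5.39 and 6.80 FPKM. Ptger3 was at 7.88, 5.94, 5.98 and 4.24 FPKM. Ptger4 and Ptger2 were at 0.24 to 0.40 and 0.09 to 0.53 FPKM, and the receptors of prostaglandin D2 itself, Ptgdr and Ptgdr2, were at 0.01 to 0.74 and 0.09 to 0.37 FPKM, 0.01 being the lowest value the files list. The synthase of prostaglandin D2 was thus at 18.1 FPKM or more in each library and its receptors at 0.74 or less. The transporters Abcc4 and Slco2a1 were at 3.01 to 4.03 and 1.96 to 2.22 FPKM, and of the enzymes that break prostaglandins down, Ptgr2 was at 4.27 to 5.83, Hpgd at 1.23 to 1.56 and Ptgr1 at 0.21, 0.52, 0.84 and 0.10 FPKM, again in the order of Ptgds. Female control was also highest for Abcc4 (4.03 FPKM) and for the prostacyclin synthase Ptgis, at 0.33, 0.26, 1.01 and 0.33 FPKM.

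Of 27 retinoid genes, 24 had a row and 19 a mean of at least 1 FPKM, and 14 of these are not members. Among the 14, only Ttr, the transthyretin that carries Rbp4 in plasma and is a product of the choroid plexus, passed an absolute log2 difference of 1. Ttr was at 256, 690, 3.96 and 42.4 FPKM and thus lowest in the library in which Rbp4 was highest. Female control was the highest library for 5 of the 14, against 29.4% of rows with a gene ID. The median log2(FPKM + 1) difference of female control from the highest other library was -0.15 for the 14. It was -0.10 over rows with a gene ID. Of the 5, Rdh11 was highest by a small margin (21.7, 18.2, 21.9 and 18.8 FPKM). The retinol dehydrogenase Rdh10 was at 3.75, 5.37, 6.92 and 3.66 FPKM. The receptor for Rbp4, Stra6, was at 2.18, 1.02, 2.72 and 1.88 FPKM, and Rarb, a receptor gene that retinoic acid itself induces, at 2.11, 2.38, 3.76 and 2.58 FPKM.

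The remaining retinoid genes were not highest in female control. Fabp5 was at 493 to 558 FPKM and Dhrs3, a reductase that turns retinaldehyde back to retinol, at 4.74 to 5.65 FPKM. Cyp26b1, which degrades retinoic acid, was at 12.6, 11.03, 10.5 and 11.4 FPKM, and Cyp26a1 was at 0.20 FPKM or less. Among receptors, Rxrb was at 20.6 to 25.6, Rara at 9.43 to 11.7, Rxrg at 7.22 to 9.84 and Rxra at 4.42 to 8.21 FPKM. Aldh1a3 was at 0.15 to 0.46 FPKM, which leaves Aldh1a2 as the most abundant of the retinaldehyde dehydrogenases in each library. The median female difference of the 14 genes was -0.18 on the log2(FPKM + 1) scale and the median male difference 0.07, against -0.04 and -0.004 over rows with a gene ID.

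**Figure D3:**
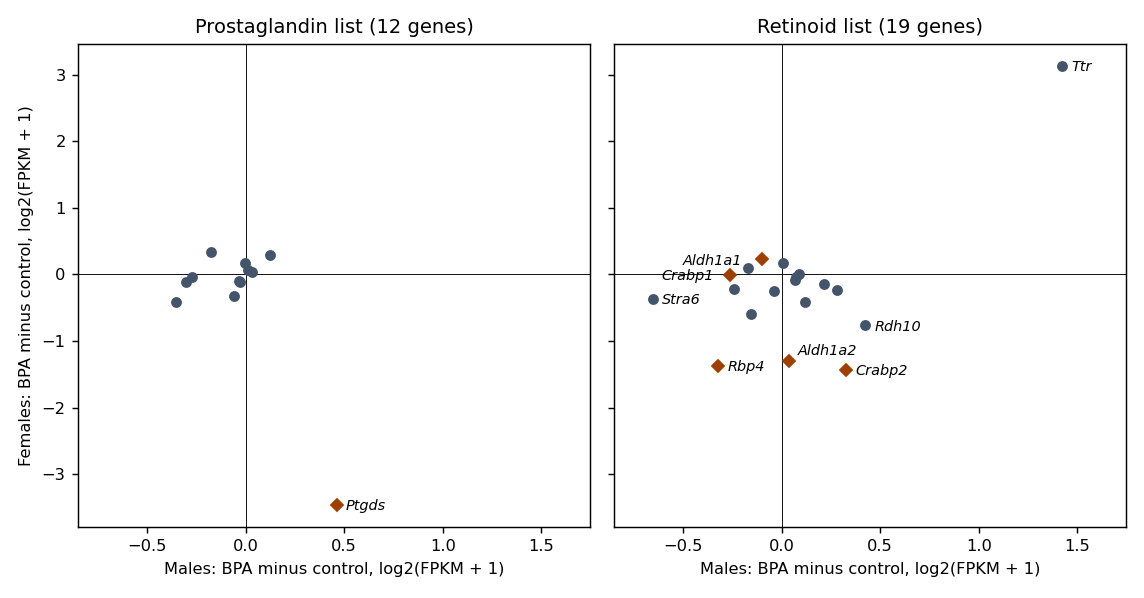
Difference of log2(FPKM + 1) between BPA and control in males (horizontal) and females (vertical) for genes of the prostaglandin (left) and retinoid (right) lists with a mean of at least 1 FPKM; diamonds are members of the 9 genes and circles the others. Ptgds (0.46 and -3.46) and Ttr (1.42 and 3.13) lie far from the rest.

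Most measured genes of the meninges that are not among the 9 were also highest in female control. Of 18 other meningeal genes measured, 12 were highest there and 6 exceeded every other library by at least 1 on the log2(FPKM + 1) scale: Dcn, Ogn, Igf2, Gjb2, Gjb6 and S100a6. Over rows with a gene ID the shares were 29.4% and 0.184%, for this list and those that follow. The small proteoglycan Dcn was at 7.17, 6.18, 20.8 and 8.10 FPKM, and the gap junction gene Gjb2 at 1.65, 0.94, 5.35 and 1.62. Among the 18, Igfbp2 had the highest mean, followed by Cxcl12, Nov and Zic1. Of these, only Cxcl12 was highest in female control, at 16.6, 18.4, 28.2 and 19.8 FPKM. Igfbp2 (132, 123, 106 and 90.8 FPKM) and Nov (27.3, 16.2, 24.9 and 11.9 FPKM) were highest in male control, as was Zic1 at 21.9, 14.6, 12.9 and 10.96 FPKM. Without the members, the summed level of the list was 269.9, 235, 313 and 200.2 FPKM, and no marker was at the lowest listed value.

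The arachnoid barrier, the cell layer that seals the meninges, gave a wider gap. Without Slc6a13 and Slc22a8, 5 of 6 measured genes were highest in female control, and the summed level was 20.01, 19.1, 53.3 and 21.3 FPKM. Of its 10 genes, Slc47a1 alone was at the lowest listed value, in female BPA. Slc22a6, a second organic anion transporter, was at 4.03, 4.55, 12.5 and 5.81 FPKM. The sulfate transporter Slc13a4 was at 2.53, 2.87, 11.4 and 2.15 FPKM, and the tight junction gene Cldn11 at 1.62, 0.87, 6.81 and 0.57 FPKM. Slc7a11 was at 3.30, 3.36, 8.69 and 5.05 FPKM. The measured gene that was not highest in female control, Abcg2, was at 4.06, 3.48, 4.2 and 5.61 FPKM. Fewer or more meningeal cells in a dissected hippocampus and less or more RNA per cell cannot be told apart in such bulk samples, and the part of either in the values of the 9 genes was not tested.

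**Figure D4:**
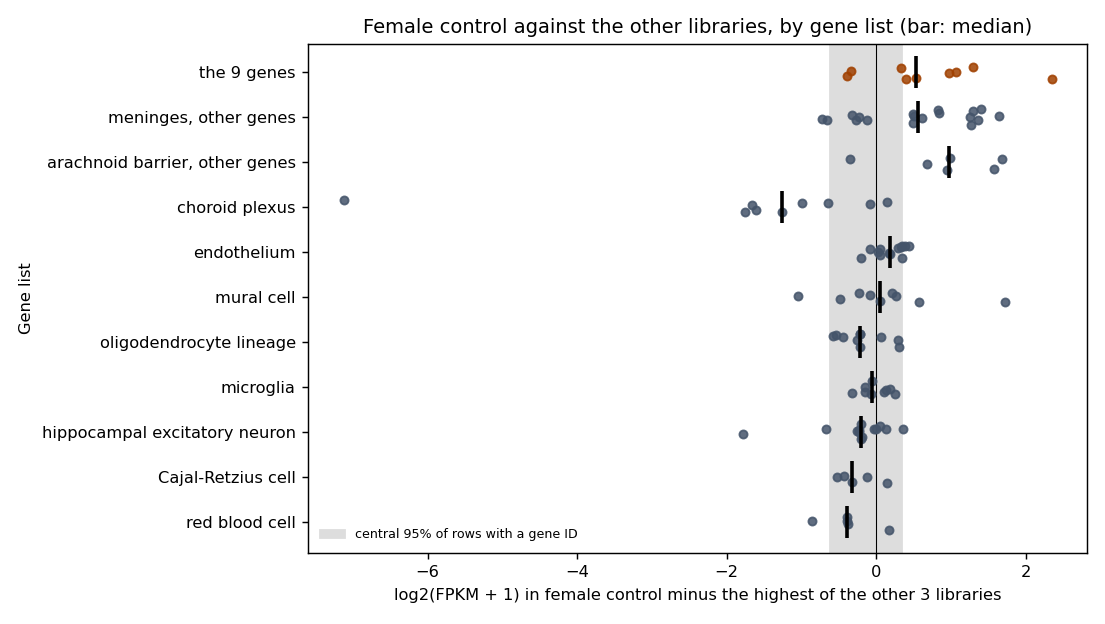
log2(FPKM + 1) in female control minus the highest of the other 3 libraries for each measured gene of the marker lists and for the 9 genes; black bars are medians and the grey band holds the central 95% of rows with a gene ID. The medians are 0.53 for the 9 genes, 0.56 for other meningeal genes, 0.97 for other arachnoid barrier genes and -1.26 for choroid plexus genes.

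The other marker lists differed in their order of libraries. Choroid plexus genes, where Ptgds and Rbp4 are also made, summed to 277, 722, 18.7 and 55.2 FPKM, led by Ttr, Folr1 and Calml4, and no marker was at the lowest listed value. The low sum in female control rests on Ttr: without it, in a sum added after its values were seen, the other 14 genes were at 20.2, 33.0, 14.7 and 12.8 FPKM and lowest in female BPA. Oligodendrocyte lineage genes (led by Olig1, Cnp and Pdgfra) summed to 175, 140, 146 and 125 FPKM, and 0 of 10 exceeded the other libraries by 1 in female control. Endothelial genes (led by Cldn5, Slc2a1 and Tie1) were highest in female control for 11 of 13, with sums of 147, 140, 163 and 137 FPKM. Mural cell genes, led by Rgs5, Notch3 and Pdgfrb, summed to 71.1, 61.3, 84.5 and 61.7 FPKM. Female control was highest for 5 of the 9 measured. Only smooth muscle Acta2, at 0.75, 1.01, 8.71 and 1.95 FPKM, exceeded the other libraries by 1 there. Higd1b was lowest there, at 3.81, 3.66, 1.33 and 3.02 FPKM. Microglial genes summed to 62.0 to 73.6 FPKM (C1qa and C1qb among them), Cajal-Retzius genes to 123 to 151.2 (led by Reln and Calb2) and red blood cell genes to 1075 to 1359 (led by Hba1, Hbb and Hba2). Thus the meningeal, barrier, endothelial, mural and microglial lists had their highest sum in female control, by a wide margin only for the barrier list, the red blood cell and excitatory neuron lists had their lowest there, as did choroid plexus only with Ttr, and the part of these tissues in the levels of the 9 genes was not tested.

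**Figure D5:**
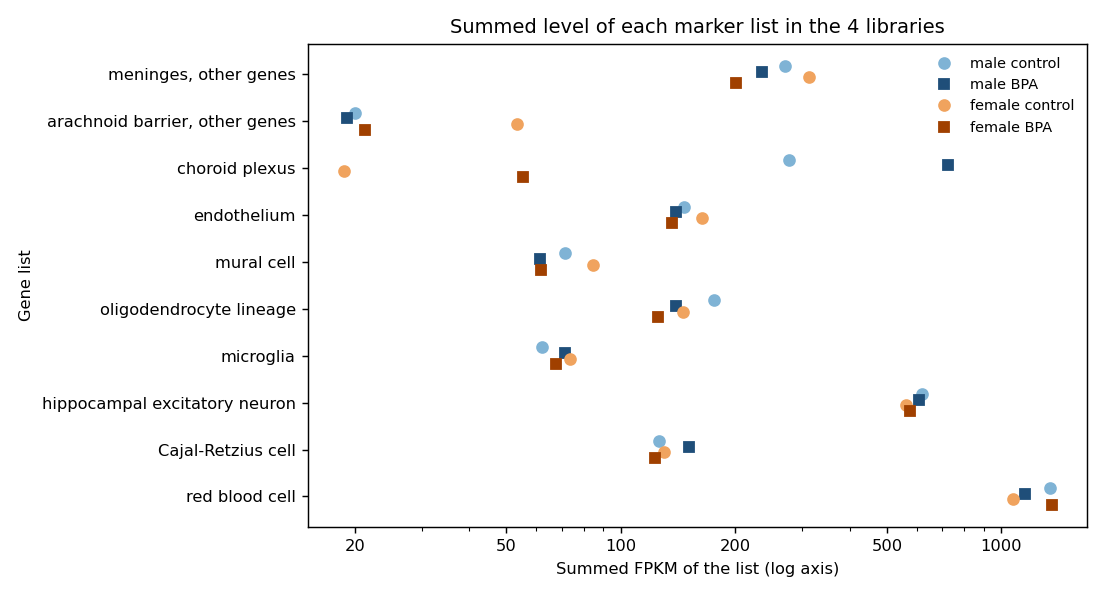
Summed FPKM (log axis) of each marker list in the 4 libraries, with members of the 9 genes left out of the meningeal and arachnoid barrier lists. Arachnoid barrier genes stand at 53.3 FPKM in female control against 19.1 to 21.3 elsewhere, and choroid plexus genes run from 18.7 to 722 FPKM, an order that Ttr sets.

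The rows most like Ptgds over the 4 libraries were sought by the Euclidean distance between log2(FPKM + 1) values centred on each gene's mean, over 10856 rows with a gene ID. The 10 nearest were Nupr1, Tnnt2, Cldn11, Ogn, Slc13a4, Gjb6, Igf2, Acta2, Slc13a3 and Slc6a20, at distances of 0.96 to 1.497. The nearest, the stress-responsive chromatin gene Nupr1, was at 0.80, 1.21, 4.82 and 0.20 FPKM. Tnnt2, a troponin of heart muscle, was at 0.52, 1.25, 4.23 and 0.10 FPKM. Both had, like Ptgds, more FPKM in BPA than in control males and the lowest value in female BPA. Ogn, a small proteoglycan, was at 1.74, 2.79, 10.8 and 2.07 FPKM, and Igf2, a growth factor, at 8.86, 10.9, 29.6 and 8.16 FPKM. Among the members, Aldh1a2 ranked 11, Rbp4 15, Slc6a13 23 and Crabp2 24, while Slc22a8 ranked 175, Foxc1 458, Crabp1 8518 and Aldh1a1 10174. Such a likeness rests on 4 points, of which female control is the farthest from the rest.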

How the data were processed

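RNA-seq of pooled hippocampi was taken as the authors deposited it, with a single FPKM value for each gene in a library, made by them from mirVana RNA and Illumina libraries. The submitters' processing notes name the rat build rn6, HISAT 0.1.6, Bowtie2 2.2.5 and RSEM, with no order or filters given in the sources used here. FPKM scales to each library's total, so that a very abundant transcript lowers the others.

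The 4 files were joined on row names (16375 rows in all 4, of 17445). Differences were computed on log2(FPKM + 1), which understates changes of low genes. The 13542 rows averaging 1 FPKM or more were tested, of which 10857 carry a gene ID and the rest are new gene models. With 1 library per group, rows past an absolute log2 difference of 1 within a sex are a description of 2 libraries. Both sexes together were compared in limma 3.58.1 (R 4.3.3, eBayes with trend, no covariate, Benjamini-Hochberg over all rows). Since the files hold no counts, a count test was not used. Depth was estimated from rows of 300 to 1500 bases, at the depth and length offset that bring low values nearest to whole fragments: 94.8% to 98.2% then lay within 0.15 of a whole number, where 30% would by even spread. Poisson intervals and exact binomial intervals of ratios (95%) used these fragments. Both steps were tested on simulated data. Python 3.11.15 with numpy 2.4.6, pandas 2.3.3 and scipy 1.17.1 was used.

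The members, the gene lists and the alternatives were chosen with earlier results of these data known, so no list is independent evidence. Named are the 9 genes, the most abundant genes of each pathway role, those past 1 in a sex, leading markers of 10 lists and the 10 rows nearest to Ptgds; further list genes were named after their values were seen, and some genes the rule names are not reported here. Of 179 list genes 8 had no row and 4 were matched through RefSeq, to which 13901 of 13984 gene IDs matched. Promoter windows are RefSeq's, on GRCr8, matched by gene ID. Alternatives were another pseudocount, other filters and scalings, summed gene models, a sex covariate, no trend, and leaving out each library.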

Additional observations from a re-analysis of the deposited data

Results flagged for a closer look

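For 5 of the 9 genes the BPA library lay on opposite sides of its control in the sexes, 1 library against 1 in each; the differences between the sexes were not tested, since neither sex has a replicate. On the log2(FPKM + 1) scale, BPA minus control was 0.46 in males and -3.46 in females for Ptgds, and 0.33 in males and -1.43 in females for Crabp2. It was 0.038 and -1.30 for Aldh1a2 and 0.081 and -1.07 for Slc6a13. For Aldh1a1 the order was turned, with -0.10 in males and 0.22 in females. Opposite sides were seen in 42.5% of rows with a gene ID. All 5 female differences contain the female control library by which the genes were chosen, and of the 5 male ratios only that of Ptgds has a counting interval that excludes 1.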

How the results depend on the processing

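The differences of the 9 genes within males, within females and between female control and the highest other library stayed within their counting intervals under every alternative that kept the gene, and the near-zero female difference of Crabp1 changed sign. Members past -1 in females numbered 5, or 4 with quantile normalization (Slc6a13 at -0.99). Members at least 1 higher in female control than elsewhere numbered 3, or 2 with quantile normalization (Slc6a13 at 0.99) and 4 with a pseudocount of 0.1 (Rbp4 at 1.22). A mean of at least 5 FPKM kept 4 of the 9 genes. The combined limma fit called 0 rows, 2 with sex as a covariate, 6 without the trend, 637 at an unadjusted p (Rbp4 among them), and 0 to 3 when a library was left out (3 without female control, 1 without male BPA). No member passed an adjusted p in these fits. Leaving out 1 library, where the lone library is assumed to vary like the others, moved the combined log2 difference between -0.13 and 0.26 for Aldh1a1, -1.35 and 0.085 for Aldh1a2, -0.30 and 0.036 for Crabp1, -1.28 and 0.29 for Slc6a13, -1.07 and -0.036 for Crabp2, -1.34 and -0.36 for Rbp4, and -2.91 and -0.09 for Ptgds. Crabp2 was nearest to 0 without female BPA, and Rbp4 and Ptgds without female control.

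Counts over all rows depend on low values and on new gene models. Rows past an absolute log2 difference of 1 numbered 230 in males and 294 in females. They became 492 and 580 with a pseudocount of 0.1, 28 and 60 at a mean of at least 5, 48 and 101 with models of a protein summed, and 29 and 70 with gene IDs only, an alternative chosen after seeing the data. Rows at least 1 higher in female control than elsewhere numbered 31, or 65, 7 and 20 under the first, second and last of these. Quantile normalization turned the female split from 127 higher and 167 lower to 148 higher among 278. Depth limits Crabp2, Rbp4 and Aldh1a1 most, at 6 to 40 fragments per library. The labels carry no replicate numbers. No paired analysis was possible because each group has 1 library; the sex covariate sets the libraries of a sex together.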
